A study of Homo sapiens with 24 samples.

Results

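The comparison described here is the response of WM35, a human cell line from an early primary melanoma, to added insulin-like growth factor 1 (IGF1) in normal oxygen. Its members are 6 of the 24 expression arrays, taken by their labels: 3 arrays of WM35 cells that spent 24 h at 21% oxygen (normoxia) with recombinant human IGF1 (100 ng/mL) present over the last 6 h, and 3 arrays of WM35 cells that spent 24 h at 21% oxygen without it. Replicates are lettered A, B and C. The other WM35 arrays, 3 with the same IGF1 dose and 3 without it, came from cells at 1% oxygen (hypoxia) over the same 24 h and share the fit. Mel-624, a second human melanoma line, received either an siRNA pool against the IGF1 receptor (siIGF1R) or a pool with no target (siControl), and spent 3 days in normoxia or hypoxia before harvest (3 arrays in each of its groups). The maintenance medium of both lines contained serum, and the protocols do not mention serum withdrawal, so control cells may have been exposed to growth factors too.

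IGF1 binds the receptor tyrosine kinase IGF1R, which recruits the insulin receptor substrates IRS1 and IRS2 and activates the PI3K-AKT and the RAS-ERK pathways. AKT phosphorylates the FOXO transcription factors, which then leave the nucleus and stop driving their target genes, and it activates mTORC1, a kinase complex that raises protein, lipid, nucleotide and ribosome synthesis. In melanocytes and melanoma cells IGF1 is a growth and survival factor.

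Each array was made from 300 ng of total RNA. Between 15287 and 15987 of the 47231 probes were detected on the 6 normoxia arrays. The mean signal before normalization lay between 248 and 268 on the IGF1 arrays, against 317 to 341 on the control arrays. In normoxia that difference moves with the treatment. On the hypoxia arrays the mean signal was 249 to 263 with IGF1 and 251 to 264 without it. How the normoxia difference bears on the results was not tested. Quantile normalization set it aside, so each change is relative to the other genes of the same array. With scaling by the median in its place, the median of all genes moved to -0.25 on the log2 scale. Nothing in the labels ties replicates A, B and C to separate cultures. The p-values therefore cover only how far these samples spread, possibly for technical reasons, and precision is limited by having 3 arrays a group. All WM35 arrays shared 1 BeadChip, with each group in neighbouring positions, and position cannot be told apart from group. The first principal component of the residuals within groups held 31.3% of their variance, and normoxia control C (score 11.25) and hypoxia control A (14.73) stood apart on it.

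Melanocyte lineage markers gave a mixed picture of the label. SOX10, MC1R and EDNRB were detected on all 6 arrays. PMEL, MLANA, TYR, TYRP1, S100B, SLC45A2 and GPR143, which include the pigment enzymes, were detected on none. Summed over the 12 melanocyte markers with a probe, the signal was 4450 to 4624 on IGF1 arrays, against 4948 to 5180 on control arrays. Of the 10 fibroblast markers, 7 were detected on none of the arrays and 0 on all of them, COL1A1, COL3A1 and DCN among the undetected. Keratinocyte and epithelial markers detected on all 6 were KRT8, KRT18 and DSP, with KRT5, KRT14, EPCAM and CDH1 detected on none. Of 9 immune markers with a probe, CD68 and HLA-DRA were detected on all 6 arrays and 5 on none, PTPRC among them. Of 8 endothelial markers, KDR and TIE1 were detected on all 6 and 5 on none, PECAM1 among them. Summed immune marker signal was 1331 to 1367 on IGF1 arrays, against 1391 to 1511 on control arrays, and summed endothelial marker signal was 269 to 295, against 309 to 322. The ranges overlapped for fibroblast markers (277 to 301, against 292 to 325). They also overlapped for keratinocyte and epithelial markers (386 to 441, against 374 to 414). Each sum includes the background of markers that were not detected. The part of these cell types in the results was not tested.

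Of 9569 genes tested, 151 passed a Benjamini-Hochberg adjusted p of 0.05 in limma (called genes, 1.58% of those tested), 66 of them higher with IGF1 (0.69%) and 85 lower (0.888%). At an unadjusted p under 0.05 there were 1778 (18.6%). Changes were modest in size. The rises had a median log2 fold change of 0.53, which is 1.45-fold, and the falls a median of -0.58, which is 1.49-fold. SPRY1, HSPA1B and THBS1 rose and SLCO4A1-AS1, ABTB1 and YPEL3 fell by 2-fold or more. In all 151 called genes the 3 IGF1 arrays lay beyond the 3 control arrays on 1 side, where 23.0% of all tested genes showed such separation. The median standard error over all genes was 0.13, and the smallest called change was 0.35. In bulk RNA, fewer cells of a kind and less RNA per cell cannot be told apart. The gene lists below were chosen with earlier results of these data known. Shares of called members therefore describe the lists and do not test them. A gene on several lists, such as TXNIP, is counted in each. All levels below are log2 normalized signals, all changes are log2 fold changes of IGF1 over control ± SE with n = 3 arrays a group, and p-values are adjusted over all tested genes.

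**Figure D1:**
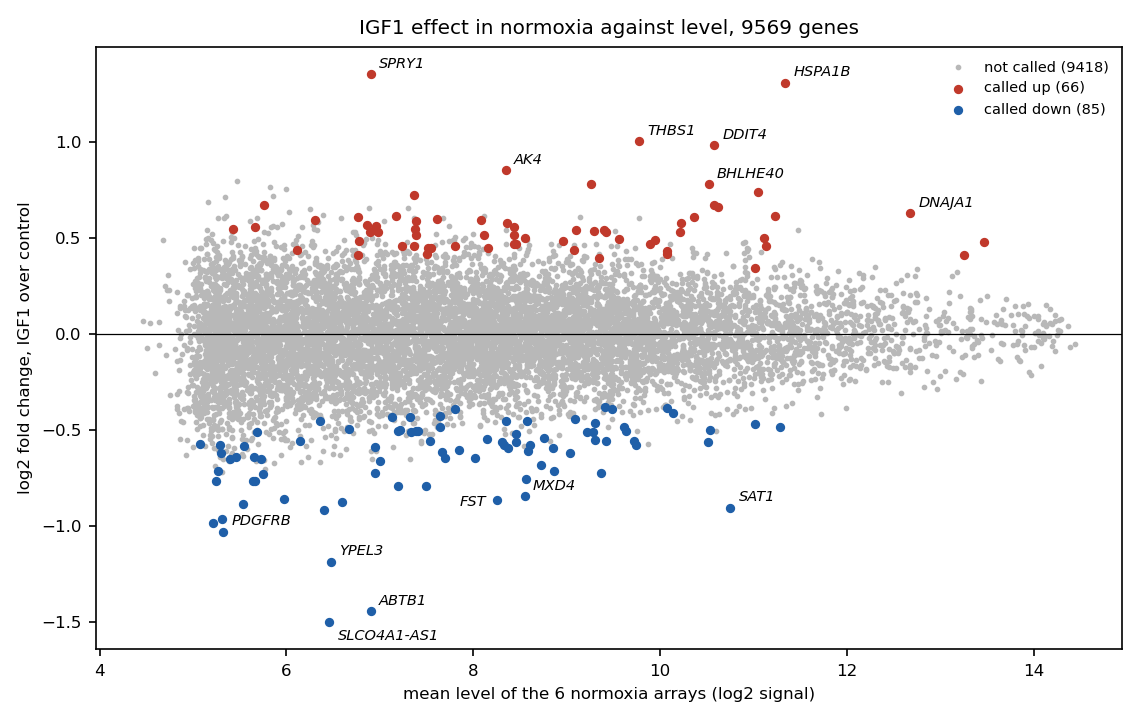
Log2 fold change of IGF1 over control in normoxia (vertical axis) against the mean level on the 6 normoxia arrays in log2 signal (horizontal axis), 1 point a gene. The 66 called rises (red) and 85 called falls (blue) spread over low and high levels, with SPRY1 and HSPA1B highest and SLCO4A1-AS1 and ABTB1 lowest.

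The receptor and its adaptors were not called. IGF1R stood at 6.44, 6.56 and 6.42 on the IGF1 arrays, against 6.67, 6.30 and 6.36 on the control arrays, and these ranges overlapped (0.03 ± 0.13, adjusted p = 0.93). IRS1 changed by 0.13 ± 0.12 and IRS2 by -0.02 ± 0.11. The insulin receptor gene INSR was detected on 1 of the 12 WM35 arrays, and the ligand genes IGF1 and IGF2 on 0, so none of these was tested.

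Of the secreted and adaptor genes of the IGF axis, 2 were called, both lower. IGFBP6, a secreted protein that binds IGF2 with high affinity, had levels of 11.01, 11.07 and 11.03 with IGF1, against 11.65, 11.52 and 11.39 in controls. It fell by 0.48 with an SE of 0.09 (adjusted p = 0.023). GRB10, an adaptor that restrains insulin and IGF1 receptors, fell by 0.50 with an SE of 0.11 (adjusted p = 0.043), and was called under 7 of 25 alternative settings. Its other probes gave -0.27 ± 0.11 and -0.05 ± 0.16. IGFBP3, the main circulating IGF carrier, changed by -0.24 ± 0.12 and was not called. In all, 0 of 15 tested IGF axis genes were called up and 2 down (13.3%, against 1.58% of all tested genes). Their median was -0.07, against a median of 0.00 over all tested genes. None of 18 PI3K and AKT pathway genes was called (median 0.04), while 4 of them had non-overlapping arrays, all higher with IGF1 (22.2%, against 10.7% of all tested genes).

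SPRY1 and DDIT4, inhibitors that act below the receptor, were called up, while their lists as a whole stayed near 0. SPRY1, a feedback inhibitor of the RAS-ERK pathway, had levels of 7.63, 7.49 and 7.63 with IGF1, against 6.05, 6.26 and 6.40 in controls. Every IGF1 array exceeded every control array by more than 1 log2 unit, and the change was 1.35 ± 0.13 (adjusted p = 0.0004). Its second probe gave 1.13 ± 0.11. The related SPRY2 and SPRY4 went the other way without being called, at -0.34 ± 0.11 (adjusted p = 0.13) and -0.31 ± 0.09 (adjusted p = 0.10). SPRY1 was the only called gene among 25 ERK feedback and output genes, whose median was -0.01. DDIT4, which restrains mTORC1, stood at 10.90, 11 and 11.30 with IGF1, against 9.97, 10.15 and 10.14 in controls. It rose by 0.98 ± 0.11 (adjusted p = 0.00074) and was the only called gene of 31 mTORC1 genes (median -0.02). Among 24 immediate early genes, which answer growth factors within the first hour, only ATF3 was called (0.49 ± 0.11, under 9 of 25 alternatives), and the median was -0.01. The samples were taken at 6 h.

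Heat shock genes encode cytosolic chaperones that fold new and damaged proteins. Of 31 tested, 4 were called up and 0 down (12.9%, against 1.58% of all tested genes). A positive change was seen in 24 (77.4%, against 49.4%), and the median was 0.21. With scaling by the median it was -0.02, which is 0.23 above the median of all genes under that scaling. HSPA1B, the inducible HSP70, had levels of 11.98, 11.98 and 12.02 with IGF1, against 10.65, 10.64 and 10.77 in controls. That is a 2.48-fold difference (1.31 ± 0.09, adjusted p = 1.5e-05), with little spread in either group. Its probe may not separate the gene from the near-identical HSPA1A. The HSP70 partner gene DNAJA1 stood at 13.10, 12.86 and 13.00, against 12.26, 12.36 and 12.46 in controls (0.63 ± 0.10, adjusted p = 0.013). DNAJB1, another HSP40 partner, rose by 0.61 ± 0.10 (adjusted p = 0.011). HSPA8, the constitutive HSP70, rose by 0.48 ± 0.10 and by 0.52 ± 0.10 on its second probe, and was called under 7 of 25 alternatives. Without normoxia control C and hypoxia control A, 3 members were called and the median was 0.23.

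In the secretory pathway, HSPA5, the main chaperone of the endoplasmic reticulum (ER), had levels of 9.82, 9.88 and 9.72 with IGF1, against 9.33, 9.27 and 9.34 in controls. It rose by 0.50 ± 0.09 (adjusted p = 0.016) and was the only called gene of 24 ER chaperone and unfolded protein response genes (median 0.09). Its ER partners DNAJB11 (0.31 ± 0.08, adjusted p = 0.073) and SDF2L1 (0.43 ± 0.13, adjusted p = 0.11) had non-overlapping arrays and missed the threshold.

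Promoters of 3 chaperone genes are shown because they carry the letter patterns that heat shock factor and ER stress factors are known to bind. Each runs 250 bases before to 50 after the annotated start in RefSeq on build GRCh38.p14, is read on the gene's own strand, and has the matching letters in capitals. HSPA1B lies at chr6:31827488-31827787 on the plus strand and has the short heat shock pattern GAANNTTC. HSPA8 lies at chr11:123062087-123062386 on the minus strand and has the longer pattern, GAANNTTC followed by NNGAA, in both orientations. HSPA5 lies at chr9:125241294-125241593 on the minus strand and has the ER stress response element. These 3 were picked after the matches were seen.
HSPA1B: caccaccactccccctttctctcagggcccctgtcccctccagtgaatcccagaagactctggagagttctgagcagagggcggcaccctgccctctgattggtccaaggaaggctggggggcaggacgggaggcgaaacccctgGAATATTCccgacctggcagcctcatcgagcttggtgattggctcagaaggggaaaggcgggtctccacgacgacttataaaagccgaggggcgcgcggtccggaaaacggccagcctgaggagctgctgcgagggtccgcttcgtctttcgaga
HSPA8: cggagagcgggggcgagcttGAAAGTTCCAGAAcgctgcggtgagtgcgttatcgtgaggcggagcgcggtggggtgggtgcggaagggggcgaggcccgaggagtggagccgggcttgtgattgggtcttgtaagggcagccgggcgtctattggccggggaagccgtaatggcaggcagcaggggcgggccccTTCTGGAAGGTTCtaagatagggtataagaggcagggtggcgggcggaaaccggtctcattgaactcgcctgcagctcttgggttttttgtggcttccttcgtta
HSPA5: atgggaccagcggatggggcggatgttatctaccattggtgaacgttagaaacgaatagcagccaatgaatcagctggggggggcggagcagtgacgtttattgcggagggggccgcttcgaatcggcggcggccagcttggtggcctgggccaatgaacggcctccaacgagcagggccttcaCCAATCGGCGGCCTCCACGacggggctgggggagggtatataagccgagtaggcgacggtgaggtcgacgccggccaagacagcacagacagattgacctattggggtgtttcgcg

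The longer pattern, searched on both strands like the others, was in 5 of the 28 heat shock promoters matched (17.9%) and in 0.487% of all 27305 promoters of that table. Its first letters form the shorter GAANNTTC, which was in 39.3% of the heat shock promoters and in 6.87% of all. Among called rises the long pattern was found for DNAJA1 and HSPA8, and DNAJB1 held neither pattern in this window. The ER stress response element, CCAAT and CCACG with 9 bases between them, was in 6 of 23 ER chaperone promoters (26.1%), against 0.0806% of all promoters. A match describes letters only, and binding was not measured.

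Ribosome biogenesis genes, which make and process ribosomal RNA, formed the second group with a median of 0.21 (0.18 above that of all genes with scaling by the median). Of 47 tested, 40 had a positive change (85.1%, against 49.4% of all tested genes), and 2 were called up and 0 down (4.26%, against 1.58%). Non-overlapping arrays were seen in 22, all 22 higher with IGF1. By comparison, 10.7% of all tested genes had non-overlapping arrays in that direction. NOP16, a nucleolar protein of the large ribosomal subunit pathway, had levels of 10.43, 10.67 and 10.44 with IGF1, against 9.93, 9.94 and 9.92 in controls (0.58 ± 0.11, adjusted p = 0.021). LYAR, a nucleolar regulator of rRNA transcription and processing, rose by 0.66 ± 0.12 (adjusted p = 0.016), while its second probe gave 0.17 ± 0.11. RRS1 and DDX10, also nucleolar, changed by 0.39 ± 0.10 each, with adjusted p of 0.078 and 0.075. CCDC86, a nucleolar protein gene on none of the lists, stood at 10.88, 10.91 and 10.95 with IGF1, against 10.24, 10.12 and 10.35 in controls (0.67 ± 0.10, adjusted p = 0.0058).

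Ribosomal protein genes did not share that direction. Of 66 cytosolic ribosomal protein genes 0 were called up and 2 down (3.03%, against 1.58% of all tested genes), and the median was 0.00. The 2 were RPL23 (-0.71 ± 0.16, adjusted p = 0.049) and RPL28 (-0.52 ± 0.11, adjusted p = 0.037). Both have many pseudogenes, so their probes may read other copies. Mitochondrial ribosomal proteins (74 tested, median 0.05), translation initiation factors (37, median 0.05), cytosolic aminoacyl-tRNA synthetases and their cofactors (17, median 0.00) and proteasome subunits (34, median 0.03) had 0 called genes each.

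In nucleotide synthesis 23 of 26 tested genes had a positive change (88.5%, against 49.4% of all tested genes), and the median was 0.13. Of the 26, 2 were called up and 0 down (7.69%, against 1.58%). CTPS1, which makes CTP, had levels of 10.55, 10.44 and 10.44 with IGF1, against 9.98, 9.98 and 9.89 in controls (0.53 ± 0.09, adjusted p = 0.014). DHODH, the mitochondrial enzyme of pyrimidine synthesis, rose by 0.44 ± 0.10 (adjusted p = 0.049, called under 6 of 25 alternatives). The purine enzymes GMPS (0.42 ± 0.10, adjusted p = 0.063) and IMPDH1 (0.40 ± 0.10, adjusted p = 0.077) had non-overlapping arrays and were not called.

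SCD, the desaturase that makes oleic acid, stood at 11.46, 11.46 and 11.34 with IGF1, against 10.66, 10.62 and 10.77 in controls (0.74 ± 0.09, adjusted p = 0.0013). It was the only called gene of 22 in fatty acid synthesis (median 0.00). Cholesterol genes had 2 called up and 0 down of 24 (8.33%, against 1.58% of all tested genes, median 0.10). These were DHCR7, the last enzyme of the pathway, at 0.60 ± 0.12 (adjusted p = 0.037), and INSIG1, a sterol-sensing regulator, at 0.56 ± 0.10 (adjusted p = 0.022). Among 25 ATF4 and amino acid response genes, ATF3, DDIT4 and VEGFA were called up and 0 down (median 0.11). By comparison, 1.58% of all tested genes were called. None of the called members is an enzyme of amino acid synthesis, and DDIT4 and VEGFA are also counted among the hypoxia-inducible genes below. SLC43A3, listed with the amino acid transporters and also known to carry purine bases, rose by 0.40 ± 0.09 (adjusted p = 0.048, called under 6 of 25 alternatives). The second SLC43A3 probe gave 0.22 ± 0.17. MARS2, the mitochondrial methionyl-tRNA synthetase, which is on none of the lists, rose by 0.72 ± 0.15 (adjusted p = 0.035).

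Some hypoxia-inducible genes rose with IGF1 at 21% oxygen. Of 29 tested, 5 were called up and 0 down (17.2%, against 1.58% of all tested genes), and 22 had a positive change (75.9%, against 49.4%). The median was 0.17 (with scaling by the median -0.03, which is 0.22 above that of all genes). AK4, a mitochondrial adenylate kinase, had levels of 8.69, 8.85 and 8.78 with IGF1, against 8.01, 7.87 and 7.87 in controls. It rose by 0.85 ± 0.12 (adjusted p = 0.0059), and its other kept probes gave 0.46 ± 0.10, 0.12 ± 0.12 and 0.45 ± 0.19. BHLHE40, a transcriptional repressor of the circadian clock, stood at 11.01, 10.82 and 10.89, against 10, 10.04 and 10.34 in controls (0.78 ± 0.11, adjusted p = 0.0073).

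HK2, which encodes the first enzyme of glycolysis, had levels of 9.48, 9.71 and 9.75 with IGF1, against 8.83, 8.86 and 8.90 in controls (0.78 ± 0.10, adjusted p = 0.0041). Its dimmer second probe gave 0.00 ± 0.19, so the rise rests on 1 probe. VEGFA, the angiogenic growth factor, rose by 0.56 ± 0.12 (adjusted p = 0.042, called under 7 of 25 alternatives), and its second probe gave 0.35 ± 0.19. DDIT4, described above, is the other member called. Without normoxia control C and hypoxia control A, 4 members were called and the median was 0.22. HK2 was the only called gene of 23 glycolytic enzymes (median 0.11).

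For DDIT4, BHLHE40 and AK4 the levels reached with IGF1 in normoxia lay below those of hypoxic cells. DDIT4 stood between 12.78 and 12.99 on the 6 hypoxia arrays and BHLHE40 between 12.46 and 12.78, above the highest normoxic IGF1 values of 11.30 and 11.01. For AK4 the hypoxia arrays lay between 9.45 and 9.92. SPRY1, which is not on the hypoxia list, showed the same order, with 8.55 to 8.98 on the hypoxia arrays.

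**Figure D2:**
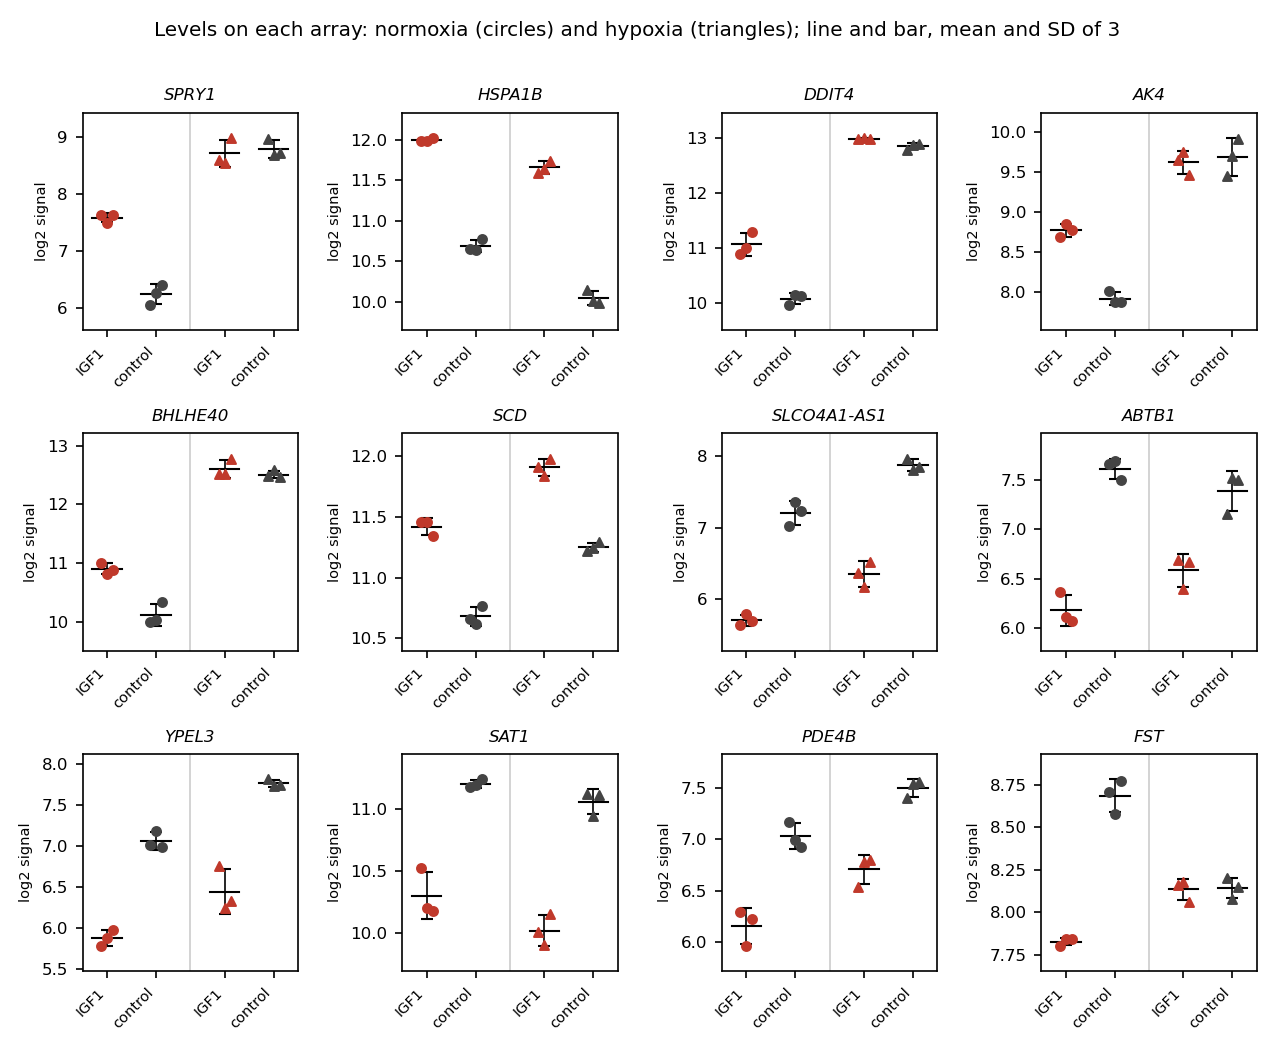
Log2 signal of 12 genes on each array, IGF1 (red) left of control (grey), in normoxia (circles) and hypoxia (triangles), with the mean and SD of 3 arrays a group. SPRY1, DDIT4, AK4 and BHLHE40 rise with IGF1 in normoxia and lie higher, with overlapping or close groups, in hypoxia, while HSPA1B, SCD, SLCO4A1-AS1, ABTB1, YPEL3, SAT1 and PDE4B differ between IGF1 and control at both oxygen levels.

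Among secreted and matrix genes, THBS1, an anti-angiogenic matrix protein, had levels of 10.16, 10.11 and 10.56 with IGF1, against 9.15, 9.11 and 9.56 in controls. It rose (1.00 ± 0.19, adjusted p = 0.022), although replicate C was highest in both groups. FST, which encodes the activin antagonist follistatin, stood at 7.80, 7.84 and 7.84, against 8.71, 8.58 and 8.77 in controls (-0.86 ± 0.09, adjusted p = 0.0004). These were the only called members of 18 invasive melanoma and mesenchymal genes (11.1%, against 1.58% of all tested genes, median -0.15). PTGS2, the inducible cyclooxygenase, fell by 0.60 with an SE of 0.11 (adjusted p = 0.016), and its second probe gave -0.39 ± 0.21. PTGS2 was the only called gene of 17 NF-kB and inflammatory genes (median 0.01). The collagen-binding integrin subunit ITGA1 fell by 0.79 with an SE of 0.12 (adjusted p = 0.0085).

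ABTB1, which encodes a BTB-domain protein, had levels of 6.36, 6.11 and 6.07 with IGF1, against 7.66, 7.69 and 7.50 in controls. All IGF1 arrays lay more than 1 log2 unit below all control arrays (-1.44 ± 0.13, adjusted p = 0.00016). YPEL3, a member of the Yippee family that slows growth when raised, stood at 5.78, 5.88 and 5.98, against 7.02, 7.19 and 6.99 in controls (-1.18 ± 0.13, adjusted p = 0.0007). Its relative YPEL5 fell by 0.58 with an SE of 0.10 (adjusted p = 0.017). Together with TXNIP these made 3 called falls and 0 rises among 12 Yippee-like and other growth suppressor genes, with a median of -0.19. By comparison, 1.58% of all tested genes were called. The list is small, and TXNIP is also counted among the MYC network and FOXO genes below.

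HBP1, a repressor of cell cycle genes that is on none of the lists, had levels of 7.24, 6.92 and 7.14 with IGF1, against 7.76, 7.95 and 7.96 in controls (-0.79 ± 0.13, adjusted p = 0.013). Its second probe gave -0.76 ± 0.13. The MXD proteins compete with MYC for their partner MAX and repress MYC targets. MXD4 stood at 8.17, 8.26 and 7.96, against 8.98, 9.05 and 8.88 in controls (-0.84 ± 0.13, adjusted p = 0.0085). MXD3 fell by 0.72 with an SE of 0.10 (adjusted p = 0.0041). TXNIP, an arrestin that lowers glucose uptake and is induced by the MYC relative MondoA, fell by 0.49 with an SE of 0.11 (adjusted p = 0.043), and was called under 8 of 25 alternatives. These were the 3 called genes of 13 in the MYC, MAX and MXD network, whose median was -0.08. The share called was 23.1%, against 1.58% of all tested genes.

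The non-coding RNA SLCO4A1-AS1 had the largest fall. Its levels were 5.64, 5.79 and 5.70 with IGF1, against 7.02, 7.36 and 7.24 in controls, a 2.82-fold difference (-1.50 ± 0.12, adjusted p = 4.6e-05). SAT1, which acetylates polyamines for breakdown and export, stood at 10.52, 10.20 and 10.18, against 11.18, 11.19 and 11.24 in controls (-0.90 ± 0.11, adjusted p = 0.002). ODC1, which makes polyamines, had 8.67, 8.63 and 8.71 against 8.39, 8.34 and 8.36 in controls, and was not called (0.31 ± 0.08, adjusted p = 0.081). SAT1 was the only called gene of 17 polyamine genes (median 0.03). PDE4B, a phosphodiesterase that degrades cyclic AMP, had levels of 6.29, 5.96 and 6.22, against 7.17, 6.99 and 6.93 in controls (-0.87 ± 0.12, adjusted p = 0.0041), and its second probe gave -0.64 ± 0.17.

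Receptor tyrosine kinases other than IGF1R leaned down. Of 17 tested, 1 was called, PDGFRB (5.88%, against 1.58% of all tested genes). A positive change was seen in 1 (5.88%, against 49.4%), and the median was -0.14. PDGFRB, the receptor for platelet-derived growth factor B, stood at 5.06, 4.60 and 4.77 with IGF1, against 5.84, 5.77 and 5.90 in controls. It was detected on 0 IGF1 arrays and on all 3 control arrays, which makes the fall at least 1.45-fold (adjusted p = 0.0041). PDGFRB was detected on only 4 of the 12 WM35 arrays. It therefore passed the detection filter only through the normoxia controls, where it was high. Its p-value and the share called carry that selection. ERBB2 changed by -0.42 ± 0.11 (adjusted p = 0.088) and ERBB3 by -0.35 ± 0.10 (adjusted p = 0.087), both with non-overlapping arrays. In all, 10 of the 85 called falls were undetected on every IGF1 array and have only such a lower bound. Examples are at least 1.4-fold for CEMIP, which degrades hyaluronan, and at least 1.32-fold for the transcription factor ATOH8. Genes of this kind entered the test through arrays other than the normoxia IGF1 arrays.

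Lysosome and autophagy genes, many of them driven by TFEB and FOXO factors, had 0 called up and 2 down of 36. That is 5.56%, against 1.58% of all tested genes. ULK1, the kinase that starts autophagy, had levels of 9.45, 9.45 and 9.43 with IGF1, against 10.09, 9.97 and 9.93 in controls (-0.56 ± 0.09, adjusted p = 0.011), and -0.54 ± 0.11 on its second probe. ATG2A, a lipid transfer protein of the growing autophagosome, fell by 0.56 with an SE of 0.12 (adjusted p = 0.047, called under 8 of 25 alternatives). The list's median was -0.11, and 13 members had non-overlapping arrays that were lower with IGF1 (36.1%, against 12.3% of all tested genes) and 1 had arrays that were higher. CTSD, a lysosomal protease, changed by -0.38 ± 0.09 (adjusted p = 0.055).

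Of 24 FOXO factors and FOXO target genes 2 were called down and 0 up (8.33%, against 1.58% of all tested genes). Their median was -0.13, and in 9 of them the IGF1 arrays lay below the control arrays without overlap (37.5%, against 12.3% of all tested genes). FBXO32, a ubiquitin ligase that FOXO factors drive in atrophying muscle, had levels of 9.18, 9.04 and 8.86 with IGF1, against 9.65, 9.45 and 9.63 in controls (-0.55 ± 0.10, adjusted p = 0.016). Its second probe gave -0.22 ± 0.17. TXNIP, a second called member, was described above. KLF9 (-0.32 ± 0.09, adjusted p = 0.10), KLF6 (-0.25 ± 0.09, adjusted p = 0.16) and ERBB3 missed the threshold. CDKN1A, a cell cycle inhibitor, went the other way at 0.43 ± 0.15 (adjusted p = 0.16). Without normoxia control C and hypoxia control A, 1 member of the FOXO list was called and the median was -0.06.

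**Figure D3:**
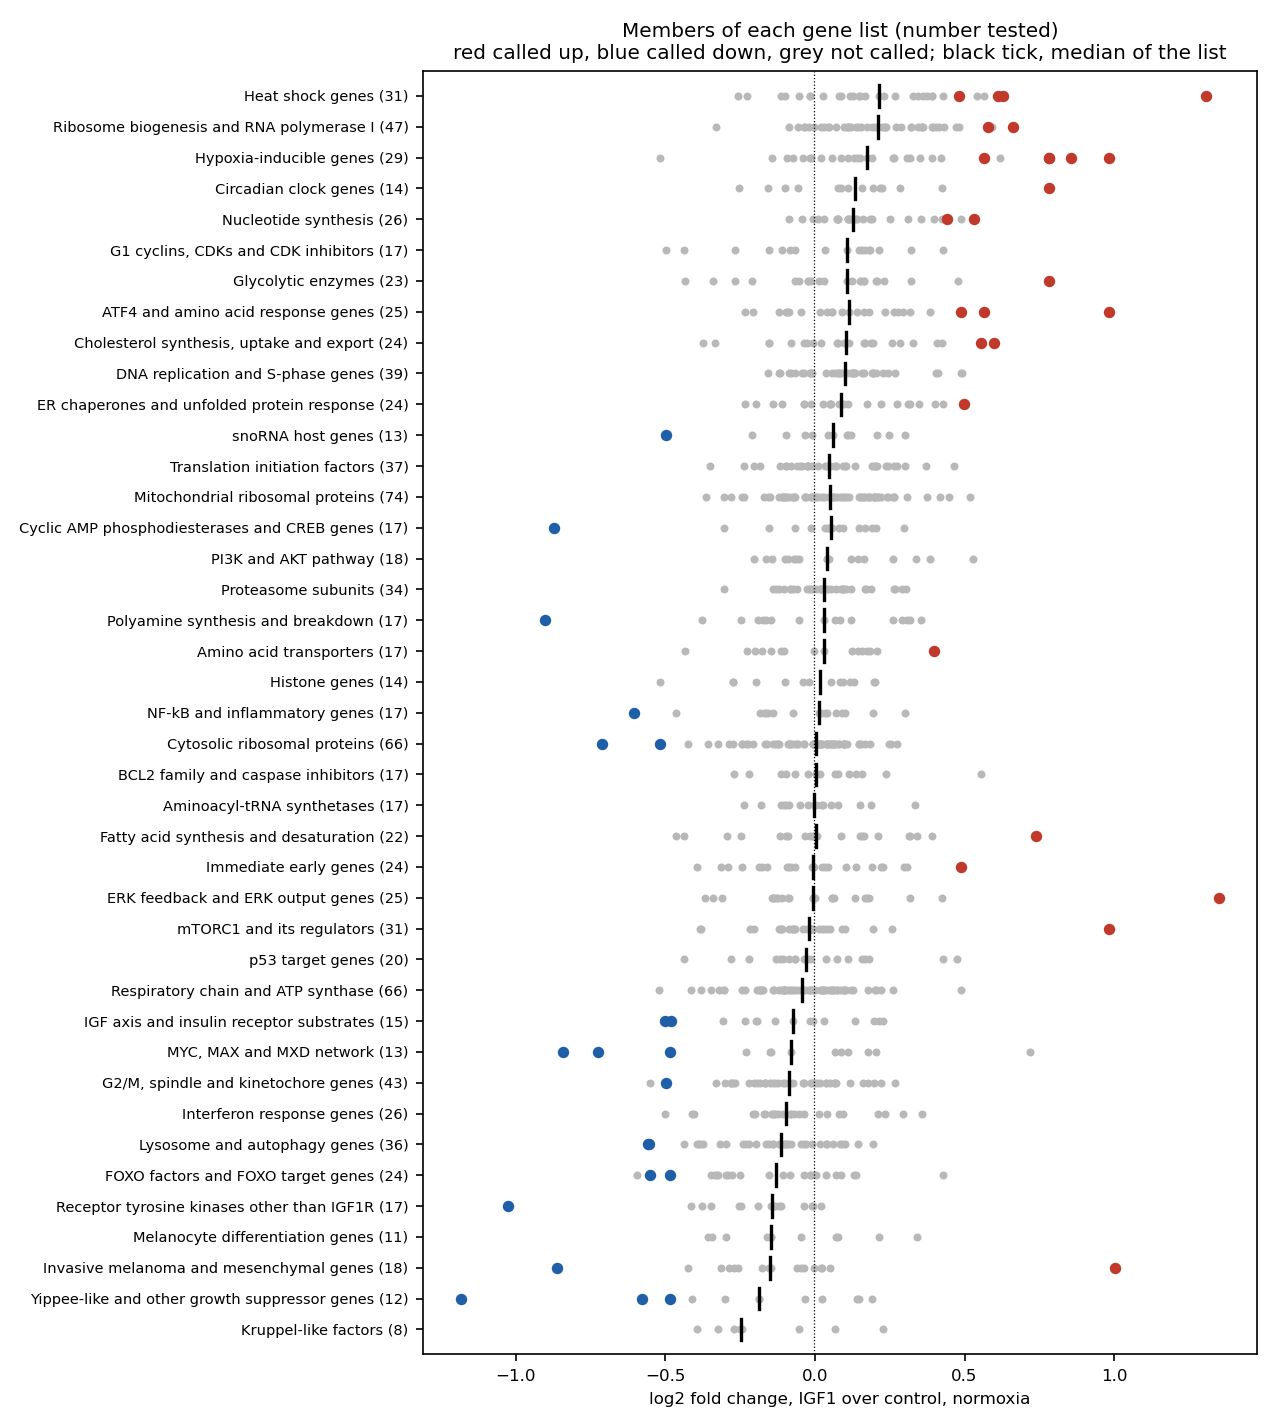
Log2 fold change of IGF1 over control in normoxia (horizontal axis) for every tested member of each of the 41 pathway lists, without the cell type marker lists (rows, number tested in brackets), with called rises in red, called falls in blue, other genes in grey and the list's median as a black tick. Heat shock and ribosome biogenesis genes have the highest medians, both 0.21, and the Kruppel-like factors, with 0 called of 8, the lowest at -0.25.

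Promoters of the called falls were then read for letters that FOXO factors bind. A promoter was matched to 124 of the 151 called genes and to 7813 of the 9569 tested genes. The pattern GTAAACA, on either strand, was in 10 of 71 called falls with a promoter (14.1%) and in 0 of 53 called rises, against 2.29% of all tested genes and 3.41% of all promoters. It was 1 of 7 patterns searched, all chosen after the called genes were known, and no test was made. The 7 genes shown fall under the naming rule used for this comparison, and each window of 41 bases has the match in the middle, in capitals, on build GRCh38.p14 as in RefSeq. YPEL3 lies at chr16:30096190-30096230 (minus strand), HBP1 at chr7:107168813-107168853 (plus strand) and KLHDC2 at chr14:49768103-49768143 (plus strand). SPSB3 lies at chr16:1782549-1782589 (minus strand), where the match is on the opposite strand and reads TGTTTAC. CCDC28A lies at chr6:138773752-138773792 (plus strand), TXNIP at chr1:145996680-145996720 (minus strand) and IGFBP6 at chr12:53097464-53097504 (plus strand).
YPEL3: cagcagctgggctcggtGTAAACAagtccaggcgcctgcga
HBP1: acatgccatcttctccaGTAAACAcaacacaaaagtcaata
KLHDC2: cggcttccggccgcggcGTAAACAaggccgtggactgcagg
SPSB3: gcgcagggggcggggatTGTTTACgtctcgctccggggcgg
CCDC28A: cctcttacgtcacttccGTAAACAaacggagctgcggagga
TXNIP: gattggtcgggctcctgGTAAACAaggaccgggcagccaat
IGFBP6: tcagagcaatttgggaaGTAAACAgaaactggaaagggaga

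The match began at the annotated start itself in YPEL3 and CCDC28A, 1 base before it in SPSB3, 33 before it in KLHDC2, 124 in TXNIP, 173 in HBP1 and 186 in IGFBP6. KLHDC2, a substrate receptor of a ubiquitin ligase, had levels of 8.17, 8.29 and 8.11 with IGF1, against 8.92, 9.05 and 8.85 in controls (-0.75 ± 0.13, adjusted p = 0.014). SPSB3, another ubiquitin ligase adaptor, stood at 9.01, 9 and 9.03, against 9.65, 9.80 and 9.75 in controls (-0.72 ± 0.10, adjusted p = 0.0041). CCDC28A fell by 0.68 with an SE of 0.10 (adjusted p = 0.0079). The other genes with the pattern, named only because they held it, were COQ8A (-0.56), CRBN (-0.55) and C10orf90 (-0.50), which had it in 2 places.

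Over all 179 tested genes with GTAAACA in the promoter, the median change was -0.10, 63.7% lay below 0, and 10 were called down and 0 up. Over the 7634 genes without it the median was 0.00, 50% lay below 0, and 61 were called down and 53 up. In hypoxia, on other arrays, the pattern was in 5.37% of called falls and 1.43% of called rises with IGF1. Without the genes already called in normoxia these shares were 3.22% and 1.56%. In Mel-624, on other arrays and in other cells, it was in 4.47% of genes called up and 1.40% of genes called down with siIGF1R, against 2.24% of genes tested in both lines. Across the other settings for calling genes, the share among called falls in normoxia ranged between 3.08%, with scaling by the median, and 29.4%, and the share among called rises between 0 and 1.16%.

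**Figure D4:**
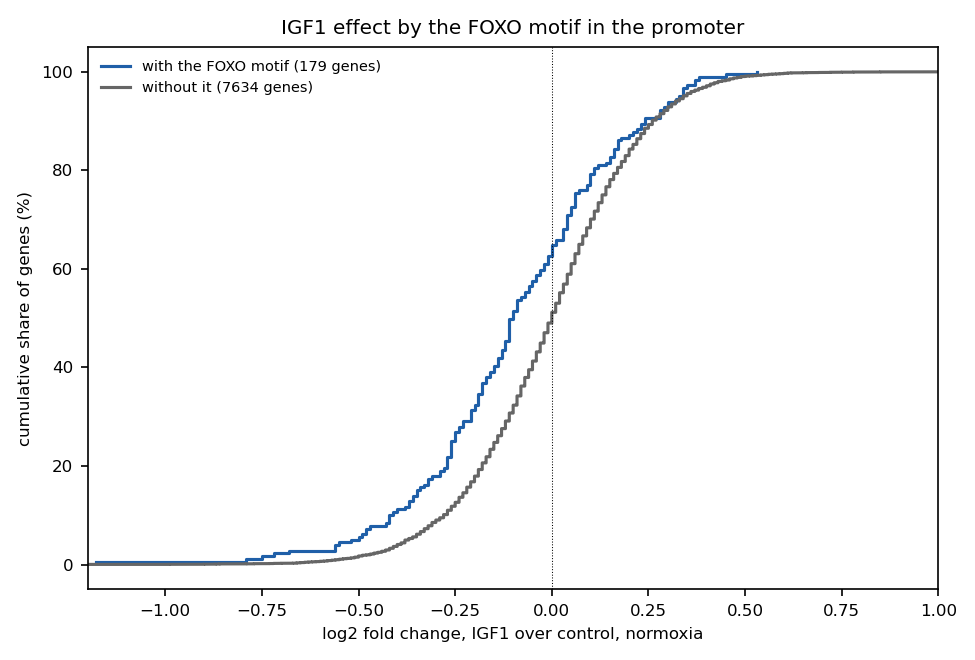
Cumulative share of genes in percent (vertical axis) by log2 fold change of IGF1 over control in normoxia (horizontal axis), for 179 tested genes whose promoter holds the FOXO pattern (blue) and 7634 that lack it (grey). The blue line lies to the left over most of its course, with 63.7% of genes below 0 against 50%.

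The other patterns were counted in the same way. CACGTG, the E-box that MYC, MAX and MXD proteins bind, was in 24.5% of called rises and 8.45% of called falls, against 10.7% of all tested genes, and in 34.1% of ribosome biogenesis promoters. ACGTG, the core that hypoxia-inducible factors bind and that every CACGTG contains, was in 39.6% of called rises and 25.4% of called falls, against 28.0% of tested genes. TGACGTCA, bound by CREB and ATF factors, was in 9.43% of called rises and 1.41% of called falls, against 3.49%. The 2 heat shock patterns and the ER stress element were in 3.77%, 5.66% and 1.89% of rises and in 1.41%, 9.86% and 0% of falls. Their shares over tested genes were 0.307%, 4.85% and 0.154%.

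Few cell cycle genes were called at this time. None of 39 DNA replication and S-phase genes was called (median 0.10), and none of 17 G1 cyclins, CDKs and CDK inhibitors (median 0.11). Among 43 G2/M, spindle and kinetochore genes CDC25C, a phosphatase that admits cells to mitosis, was called down (-0.50 ± 0.11, adjusted p = 0.048, under 6 of 25 alternatives). The second CDC25C probe gave -0.26 ± 0.15. The list's median was -0.09. In 12 members the arrays did not overlap and were lower with IGF1 (27.9%, against 12.3% of all tested genes), and in 2 they were higher. Interferon response genes (26 tested, median -0.10), p53 target genes (20, median -0.03) and apoptosis regulators of the BCL2 family (17, median 0.00) had 0 called members each. So did histone genes (14, median 0.02) and melanocyte differentiation genes (11, median -0.15). Of the 11 melanocyte differentiation genes, 4 had non-overlapping arrays, all lower with IGF1 (36.4%, against 12.3% of all tested genes).

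The same dose in hypoxia was set beside these effects. The 2 comparisons use different arrays but 1 normalization and 1 estimate of spread. In hypoxia 867 genes were called (9.06%). Of the 66 genes called up in normoxia, 63 had a positive effect in hypoxia and 32 were called up there (48.5%, or 7.42% of the hypoxia rises), against 4.5% of all tested genes. Of the 85 called down, 79 had a negative effect and 50 were called down (58.8%, or 11.5% of the hypoxia falls), against 4.56%. Of the 151, 0 were called in the opposite direction. HSPA1B changed by 1.31 ± 0.09 in normoxia and 1.62 ± 0.09 in hypoxia, SLCO4A1-AS1 by -1.50 ± 0.12 and -1.52 ± 0.12, and THBS1 by 1.00 ± 0.19 and 0.97 ± 0.19.

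**Figure D5:**
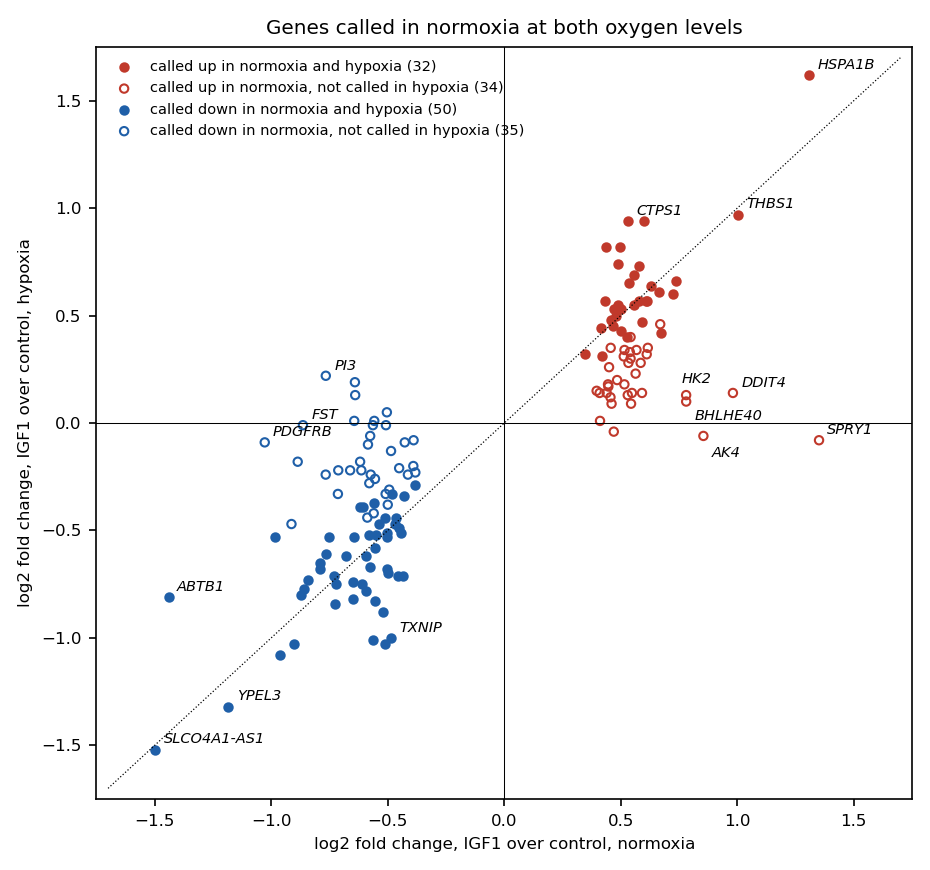
Log2 fold change of IGF1 over control in hypoxia (vertical axis) against that in normoxia (horizontal axis) for the 151 genes called in normoxia, with filled points for genes also called in hypoxia (32 up, 50 down) and a dotted line where both are equal. HSPA1B, THBS1, YPEL3 and SLCO4A1-AS1 lie near the line, while SPRY1, DDIT4, AK4, BHLHE40, HK2, PDGFRB and FST lie near 0 in hypoxia.

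A direct test of the difference, the effect in hypoxia minus that in normoxia, called 5 genes (0.0523% of those tested, with 823 at an unadjusted p under 0.05). SPRY1 was one of them, with 8.60, 8.55 and 8.98 with IGF1 in hypoxia, against 8.97, 8.68 and 8.72 in hypoxic controls, and a difference of effects of -1.43 ± 0.19 (adjusted p = 0.026). FST was another, with 8.16, 8.18 and 8.06 in hypoxia with IGF1, against 8.20, 8.08 and 8.15 in hypoxic controls, and a difference of 0.85 ± 0.12 (adjusted p = 0.026). The other called genes, REEP4, SNHG7 and P2RY11, were not called in normoxia. No gene was called without any 1 of the 6 normoxia arrays.

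Hypoxia-inducible genes that rose in normoxia had smaller effects in hypoxia without passing that test. DDIT4 changed by 0.14 ± 0.11 in hypoxia and differed by -0.84 ± 0.15 (adjusted p = 0.10), and AK4 changed by -0.06 ± 0.12 and differed by -0.92 ± 0.17 (adjusted p = 0.11). BHLHE40 changed by 0.10 ± 0.11 and HK2 by 0.13 ± 0.10 in hypoxia, with adjusted p of 0.22 and 0.21 for the difference. The whole list had a median of -0.06 in hypoxia, with 3 called up and 0 down.

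Lowering the receptor in Mel-624 was set beside adding the ligand in WM35. Each line was normalized on its own chip, so line, chip, treatment and duration cannot be told apart, and the values stand side by side with no test between lines. In normoxia 1483 of 9292 Mel-624 genes were called with siIGF1R against siControl (16%). IGF1R changed by -0.81 ± 0.18 there. Of the 70 called IGF1 falls that were tested in Mel-624, 20 were called up with siIGF1R (28.6%, against 8.09% of the 8391 genes tested in both lines). Another 8 of the 70 were called down, where 7.22% of the genes tested in both lines were. The 20 make up 2.95% of the genes called up with siIGF1R. Of the 62 called IGF1 rises tested there, 6 were called down (9.68%, against 7.22%) and 2 up, where 8.09% of the genes tested in both lines were. The sign with siIGF1R was opposite in 45 of the 70 falls and in 37 of the 62 rises. Over the 8391 genes tested in both lines the effects of IGF1 and siIGF1R correlated at r = -0.08.

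With siIGF1R in Mel-624, ABTB1 changed by 1.27 ± 0.11 (adjusted p = 4e-05), TXNIP by 1.25 ± 0.11, HBP1 by 0.78 ± 0.09, MXD4 by 0.65 ± 0.11 and YPEL3 by 0.61 ± 0.14. PDE4B changed by 0.65 ± 0.10 and ATG2A by 0.69 ± 0.10. MXD3 (-0.95 ± 0.15) and YPEL5 (-0.48 ± 0.10) fell in both settings. SAT1 (0.17 ± 0.10) and SLCO4A1-AS1 (-0.41 ± 0.15) were not called. Among the rises, AK4 changed by -0.50 ± 0.12, BHLHE40 by -0.42 ± 0.09 and NOP16 by -0.36 ± 0.10 with siIGF1R, all called down (for AK4 on another probe than in WM35), while SPRY1 (0.46 ± 0.09) and THBS1 (1.26 ± 0.17) were called up in both settings. HSPA1B was not called there, at -0.09 ± 0.12.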

How the data were processed

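The arrays were Illumina BeadChips. Per the file headers, the deposited table used here holds for every probe and array an average bead signal intensity and a detection p-value. The intensities reach below 0, so a background had been subtracted before they were deposited. GenomeStudio is named per the submitters' processing notes, without a version. The authors' table of normalized intensities, deposited with no stated method, served as an alternative and correlated with the values used here at r = 0.996 to 0.998 per array.

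Intensities of the 12 WM35 arrays were background-corrected from detection p-values, quantile normalized and log2 transformed with an offset of 16 (neqc, limma 3.58.1, R 4.3.3). A probe was kept with a detection p under 0.01 on at least 3 of the 12 arrays, and a gene took its brightest kept probe. Of 47231 probes, 27003 had 1 gene symbol, 4 several and 20224 none. The group means were fitted with lmFit and eBayes, and p-values were Benjamini-Hochberg adjusted over 9569 genes. The fit was tested on simulated data with independent noise. Those data lack the structure seen between these arrays, so they cannot show how well the calls hold here. The 12 normoxia and hypoxia arrays share 1 estimate of spread. Mel-624 was processed alone in the same way.

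Named genes were IGF1R, INSR, IRS1, IRS2 and IGF1, the 25 largest called rises and the 25 largest called falls, and called list members. Up to 4 members a list with the smallest p, called or not, were named too. For the difference between oxygen levels, its called genes and the normoxia calls with the smallest p for it were added. Members and lists were chosen with earlier results of these data known. The main fit did not pair arrays by replicate letter. Between the normoxia groups, residual correlations were -0.09, 0.14 and 0.22 for like letters, against -0.28 to 0.21 for unlike letters. These values do not settle whether the letters pair the arrays. Promoters, 250 bases before to 50 after the start, came from RefSeq. Alternatives covered background, scaling, filters, probes, the model and each array left out.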

Additional observations from a re-analysis of the deposited data

Results flagged for a closer look

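The effect of IGF1 differed between oxygen levels, by a direct limma test of hypoxia minus normoxia, in 5 genes. SPRY1, the ERK pathway inhibitor, had a difference of -1.43 ± 0.19 (adjusted p = 0.026), with an effect of -0.08 in hypoxia and 1.35 in normoxia. FST, the activin antagonist, had a difference of 0.85 ± 0.12 (adjusted p = 0.026), with -0.01 in hypoxia and -0.86 in normoxia.

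The other genes responded in hypoxia. SNHG7, a snoRNA host transcript, stood at 9.98, 9.76 and 9.88 with IGF1 in hypoxia, against 11.25, 11.23 and 10.87 in hypoxic controls, and its difference was -1.21 ± 0.17 (adjusted p = 0.026). In normoxia its arrays overlapped, at 11.05, 10.79 and 11.05 with IGF1, against 10.99, 10.93 and 11.07 in controls. REEP4, a protein that shapes the endoplasmic reticulum, had a difference of -1.21 ± 0.17 (adjusted p = 0.026), with -0.94 in hypoxia and 0.27 in normoxia. P2RY11, a purine receptor, had a difference of -0.95 ± 0.14 (adjusted p = 0.029), with -0.90 in hypoxia and 0.05 in normoxia.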

How the results depend on the processing

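The count of 151 called genes depended on the model and the arrays. It was 2515 with median scaling (31 up, 2484 down), 249 with detection on all 12 arrays, 90 with no detection filter, 31 with only the 6 normoxia arrays in the fit, 39 with those normalized alone, 482 with array weights, 311 with an intensity-dependent prior variance and 61 at 1.5-fold or more. With the replicate block it was 87, and the block called 2 interaction genes. Leaving out 1 array gave 26 to 194 called genes, with 26 without normoxia control A, 30 without control B, 83 without control C, 60 without IGF1 B and 35 without IGF1 C. Normalized again, the same omissions gave 26, 32, 82, 67 and 46 (chosen after seeing the data). The count of 5 interaction genes was 107 with median scaling, 8 with the deposited normalized values, 35 with array weights, 10 with the intensity-dependent variance, 0 without both arrays that stood apart, and 0 to 8 with 1 array left out. Causes were not tested. ZNF318 reversed to 0.04 with the mean of its probes, and its second probe gave 0.46 ± 0.11. Among 38 called genes with several kept probes, 30 had all probes in the same direction. In 14 of the 38 each probe also had an unadjusted limma p under 0.05. Of the 151 genes, 150 kept their sign under each of the 25 settings in which they were tested. Not every gene was tested in all 25, and 130 of the 151 remained with detection on all 12 arrays. In every setting that tested them 18 were called, among them SPRY1, HSPA1B, DDIT4, SCD, SLCO4A1-AS1, ABTB1, YPEL3, SAT1, PDE4B, FST, MXD4 and SPSB3. Probes near background limit 10 falls to lower bounds.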
